A study of Mus musculus with 8 samples.

Results

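The 48 genes described here drive and control the cell division cycle and the copying of DNA. They were chosen by name from those known to act in the cycle and matched by single symbol to the array annotation. A total of 47 of the 48 matched, out of 18193 genes measured by name. Ccnb1, the main mitotic cyclin B, did not match and is not analysed here. The samples were choroid plexus of the fourth ventricle from mouse embryos of embryonic day 13, with 4 arrays labelled Otx2 k.o. and 4 labelled Wildtype. The labels call the arrays of a group biological replicates. Both groups were untreated, came from the same litters and had a mixed strain background, with sex not determined. The knockout source is an Otx2 deficient strain, and the labels name no Cre driver, time of deletion or number of embryos per array.

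A cell that divides passes from G1, in which it commits to division, through S phase, in which DNA is copied, to G2 and mitosis. D-type cyclins with Cdk4 or Cdk6 inactivate the retinoblastoma protein in G1, which frees E2F factors to turn on replication genes. Cdk1 with cyclins A and B drives mitosis, and CDK inhibitors hold the kinases back. The choroid plexus epithelium arises from dividing progenitors of the roof plate, leaves the cycle as it differentiates and carries tufts of cilia.

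Array medians lay between 5.85 and 5.90 log2 units. Otx2, the targeted gene, read 12.38 to 12.48 in the arrays labelled knockout and 11.85 to 12.05 in the wildtype arrays, so its only probe set was higher and did not fall. The sources used here do not say where its probes lie relative to the deleted part, so a probe set outside that part would check nothing, and the arrays are called knockout-labelled throughout. Of 10 choroid epithelium markers 6 were lower (60.0%, against 11.7% of all genes), 2 were higher (20.0%, against 7.84%) and 2 did not pass. The 2 higher ones were Otx2 itself and Msx1. The thyroid hormone carrier Ttr was at 14.17 against 14.21, so this defining marker was present in both groups.

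Promoters of Cdk1, Mcm5 and Mcm7 are shown first, because these genes changed without overlap of the groups and their promoters hold E2F-type or CHR words, sites known to switch cell cycle genes. Cdk4 also changed without overlap, but its promoter held neither kind of word and is not printed. Cdkn1c, which changed without overlap as well, has no entry in the table. The groups also did not overlap in Mcm4, Mcm10, Cdk2, Birc5 and Cdkn1b, which did not pass and whose promoters are not described singly. The promoters printed were picked for these words, so they do not show how often changed genes hold them. RefSeq promoter sequences (GRCm38.p6) were found for 36 of the 47 members. Each of the following is the 250 bases before the start site, 5′ to 3′ on the gene's strand, with E2F-type words and CHR words in capitals. The E2F-type words searched were TTTCCCGC, TTTGGCGC, TTTCGCGC and TTTGCCGC, and the CHR (cell cycle homology region) words TTTGAA and TTTAAA, on both strands.
Cdk1, chr10:69352913-69353162, minus strand: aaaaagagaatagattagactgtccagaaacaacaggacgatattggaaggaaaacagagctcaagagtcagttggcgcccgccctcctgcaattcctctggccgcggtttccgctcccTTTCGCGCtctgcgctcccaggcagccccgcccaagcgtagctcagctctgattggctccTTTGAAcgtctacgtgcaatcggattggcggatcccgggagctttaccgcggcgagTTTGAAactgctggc
Mcm5, chr8:75109259-75109508, plus strand: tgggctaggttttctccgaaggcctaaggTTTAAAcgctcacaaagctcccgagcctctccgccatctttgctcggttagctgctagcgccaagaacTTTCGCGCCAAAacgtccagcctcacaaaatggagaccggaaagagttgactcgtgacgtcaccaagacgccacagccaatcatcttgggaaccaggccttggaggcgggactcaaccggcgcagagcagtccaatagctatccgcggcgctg
Mcm7, chr5:138171884-138172133, minus strand: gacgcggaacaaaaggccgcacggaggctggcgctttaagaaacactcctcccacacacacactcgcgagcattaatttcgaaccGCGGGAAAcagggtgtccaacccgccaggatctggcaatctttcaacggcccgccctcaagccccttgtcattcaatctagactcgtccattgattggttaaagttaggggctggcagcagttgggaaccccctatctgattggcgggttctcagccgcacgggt

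The Cdk1 promoter held 1 E2F-type word, whose first base lay at -131, and 2 CHR words at -71 and -15. In Mcm5 a pair of E2F-type words on opposite strands overlapped at -153 and -149, and a CHR word lay at -221. The Mcm7 promoter shown had an E2F-type word at -165 and another 17 bases into the transcript, outside the stretch printed, and a further promoter of Mcm7 in the table had none. Mcm3 had its E2F-type words at 20 and 39 bases into the transcript and none upstream. Over 300-base windows around the start, 9 of 40 member promoters (22.5%) held an E2F-type word, against 744 of 32851 promoters in the table (2.3%). A CHR word was found in 17 of 40 (42.5%), against 27.6% of all promoters, and a CCAAT box in 28 of 40 (70.0%), against 37.4%. These matches describe letters only.

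Most members did not differ between the groups by more than the test could show. Of 47 members 5 rose, 1 fell and 41 did not pass (limma, Benjamini-Hochberg adjusted p under 0.05 over all genes). The risers were the replication helicase genes Mcm3, Mcm5 and Mcm7, the G1 kinase gene Cdk4 and the CDK inhibitor gene Cdkn1c, and the member that fell was Cdk1. Over all genes 19.6% were called, 7.84% higher and 11.7% lower, against 12.8%, 10.6% and 2.1% of the members. In this fit the share of risers was thus near the background. The median difference of the members was 0.15 log2 units, with 36 of 47 differences above 0, while the median over all genes was 0.0005. In 8 members every knockout-labelled array lay above every wildtype array and in 2 below, while 9.98% of all genes lay above in this way and 14.4% below.

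Deviations of same-numbered arrays of the groups correlated at 0.131 to 0.232 over all genes. Differently numbered pairs ranged from -0.296 to 0.294, and no label names a pairing. With the replicate number as a block 11 members rose and 1 fell. That is 23.4% of the members higher, against 8.36% of all genes in the same fit, so the share was above the background there. The 6 added were Gins1, Mcm6, Prim1, Ccnd1, Ccna2 and Birc5. Without knockout-labelled replicate 2, 12 rose (25.5%, against 10.1% of all genes) and 2 fell. Without wildtype replicate 3, 3 rose (6.38%, against 4.97% of all genes) and 1 fell.

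**Figure D1:**
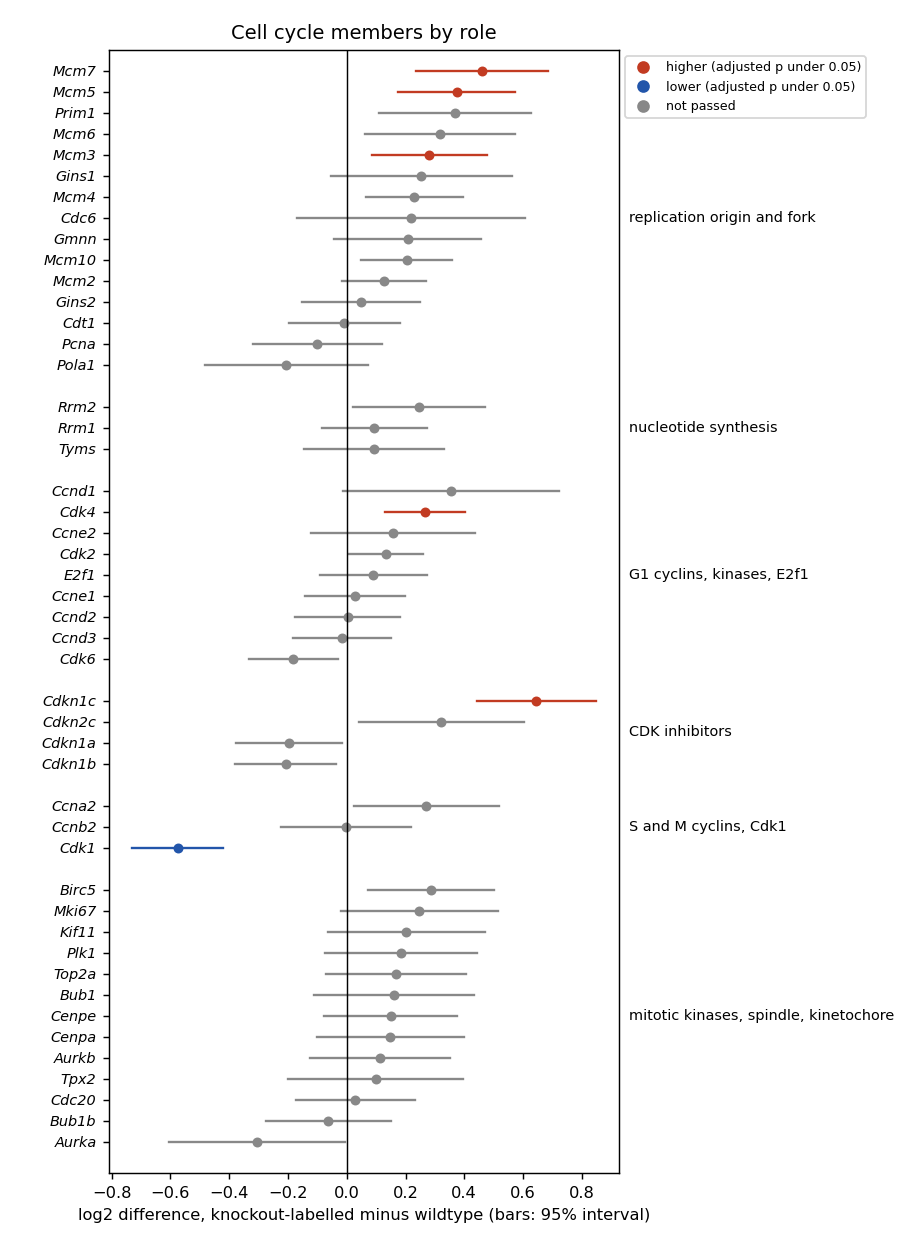
Log2 difference (knockout-labelled minus wildtype) of each of the 47 members with its 95% interval, grouped by role on the vertical axis. Red and blue points passed an adjusted p under 0.05. Of the points 36 lie to the right of 0, and Cdk1 lies apart at -0.58 and Cdkn1c at 0.65.

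Of the genes that load and run the replication fork, the role with most members, 3 of 15 rose, with 0 falling and 12 not passing. The share of risers was 20.0%, against 7.84% of all genes, and the median difference was 0.22. The MCM2-7 complex is the helicase that unwinds DNA at the fork, and its 6 subunit genes all had differences above 0, from 0.13 (Mcm2) to 0.46 (Mcm7).
Mcm7 read 10.71, 10.55, 10.37 and 10.63 log2 units in wildtype replicates 1 to 4 and 11.23, 10.90, 10.90 and 11.07 in the knockout-labelled ones. Every knockout-labelled array lay above every wildtype array. The log2 difference was 0.46 (SE 0.10, limma, adjusted p = 0.0101), or 1.38-fold.
Mcm5 read 9.92, 9.89, 9.76 and 9.99 in the wildtype and 10.44, 10.10, 10.18 and 10.35 in the knockout-labelled arrays, again without overlap. Its difference was 0.37 (SE 0.09, limma, adjusted p = 0.0162), and the adjusted p was 0.0507 without wildtype replicate 3.
Mcm3 read 9.38, 9.37, 9.23 and 9.52 against 9.81, 9.49, 9.62 and 9.71. The groups overlapped, since wildtype replicate 4 was above knockout-labelled replicate 2. Its difference of 0.28 (SE 0.09, limma, adjusted p = 0.0486) was close to the threshold and did not pass when any array other than knockout-labelled replicate 2 or wildtype replicate 4 was left out, that is in 6 of 8 fits.

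Further probe sets bore on these subunits unequally. Another probe set of Mcm5 gave 0.40, also without overlap of the groups, and a dim one gave 0.05. The 3 dimmer ones of Mcm7 gave 0.29, 0.24 and 0.19, with overlap. Names ending in _s_at or _x_at mark possible sharing between transcripts or genes. Without these shared probe sets neither Mcm3 (limma, adjusted p = 0.423) nor Mcm7 (adjusted p = 0.240) passed. Probe sets with names ending in _a_at were kept. With the mean of all probe sets of a gene the limma adjusted p was 0.296 for Mcm3 and 0.117 for Mcm7.
The remaining subunit genes Mcm2, Mcm4 and Mcm6 had differences of 0.13, 0.23 and 0.32 and did not pass. In Mcm4 the groups did not overlap, with 9.72 to 9.88 in the wildtype and 9.92 to 10.17 in the knockout-labelled arrays (limma, adjusted p = 0.0544).

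Other fork and licensing genes did not pass. Prim1, the small primase subunit, gave 0.37 (limma, adjusted p = 0.0515). The helicase loaders and activators Cdc6, Cdt1, Mcm10, Gins1 and Gins2 gave 0.22, -0.0078, 0.20, 0.25 and 0.05. The sign of Cdt1 turned with array weights, quantile normalization and in 3 fits without 1 array, that of Mcm10 with the mean of probe sets, and that of Gins2 without shared probe sets. Gmnn, the Cdt1 inhibitor geminin, gave 0.21. Pola1, the catalytic subunit of the polymerase that starts new strands, gave -0.21.
Pcna, the sliding clamp of the replicative polymerases, read 12.08, 12.02, 11.95 and 12.11 in the wildtype and 12.07, 11.84, 11.72 and 12.15 in the knockout-labelled arrays. The groups overlapped, with knockout-labelled replicates 2 and 3 below every wildtype array and replicate 4 above them all. The difference was -0.10 with a 95% interval of -0.32 to 0.12 (limma, adjusted p = 0.559), so a rise as large as that of Mcm7 lies outside it.

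Of the 3 genes for DNA precursors 0 passed limma, and 1 had an unadjusted p under 0.05. Rrm2, the regulated subunit of ribonucleotide reductase, read 10.37, 10.40, 10.28 and 10.41 against 10.86, 10.51, 10.38 and 10.69. Only knockout-labelled replicate 3 fell among the wildtype values, and the difference was 0.25 (SE 0.10, adjusted p = 0.124). It passed without that array (adjusted p = 0.0416).
Rrm1, the large subunit, read 9.69, 9.75, 9.65 and 9.79 against 9.96, 9.71, 9.67 and 9.90, with a difference of 0.09 and overlapping groups. With the mean of probe sets it was -0.0044. The named probe sets of Tyms, thymidylate synthase, all lay low, the brightest at 4.30 in the wildtype and 4.4 in the knockout-labelled group on average. These means lie close to the lower quartile of all values (4.33), and its difference was 0.09.

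**Figure D2:**
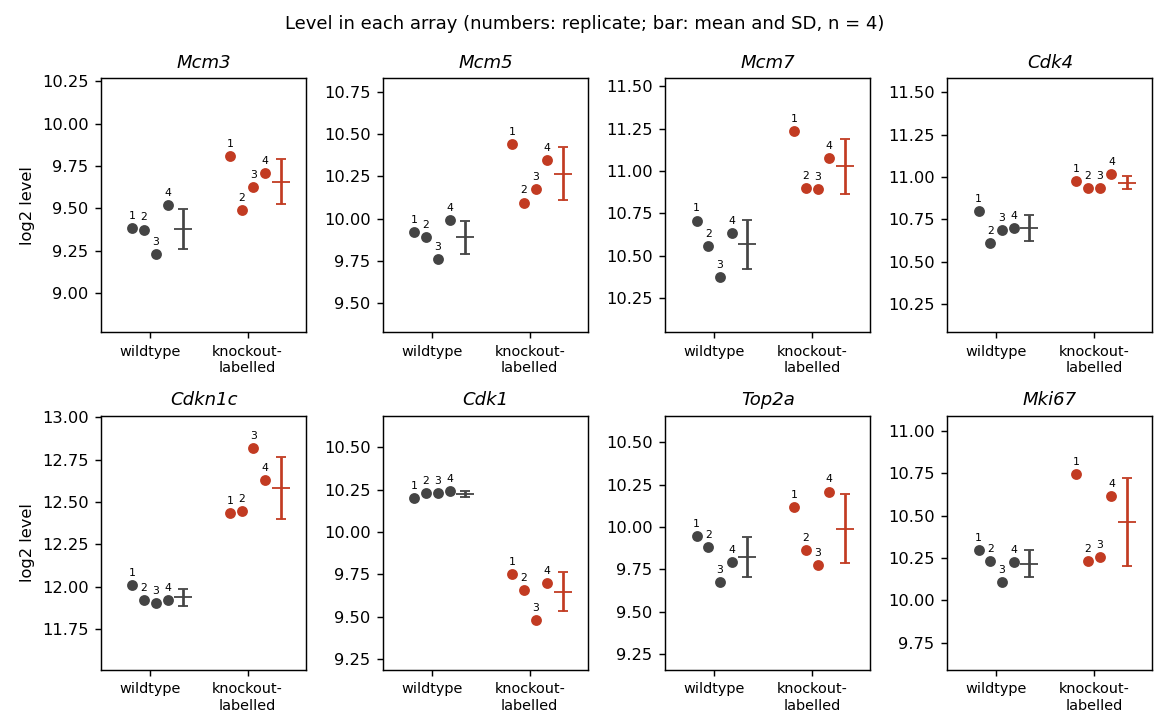
Log2 level of 8 members in each array (vertical axis, the same span in every panel), with replicate numbers above the points and the group mean with its SD beside them. The wildtype values of Cdk1 lie between 10.20 and 10.24, above all knockout-labelled values, while Top2a and Mki67 overlap between the groups.

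Among the G1 genes 1 of 9 rose (11.1%, against 7.84% of all genes), 0 fell and 8 did not pass. Cdk4, the partner of D-type cyclins, read 10.80, 10.61, 10.69 and 10.70 in the wildtype arrays and 10.97, 10.94, 10.94 and 11.02 in the knockout-labelled ones. The groups did not overlap, and the knockout-labelled values lay close together. Its difference was 0.27 (SE 0.06, limma, adjusted p = 0.0127), or 1.20-fold, and its further probe sets gave 0.25 and 0.33, also without overlap. The call held in each of the 8 fits without 1 array.
Cdk6, the related kinase, gave -0.18 (limma, adjusted p = 0.0949), with -0.13 and -0.29 from its other probe sets.

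The D-type cyclins differed among themselves in their values. Ccnd1, the D cyclin that answers to growth factors and Wnt signals, read 10.93, 10.55, 10.62 and 10.77 against 11.41, 10.58, 11.05 and 11.24. Knockout-labelled replicate 2 lay among the wildtype arrays and the other 3 above them all. The difference was 0.35 (SE 0.16, limma, adjusted p = 0.177). The gene passed with the replicate block (adjusted p = 0.0408) and, with a difference of 0.52, without knockout-labelled replicate 2 (adjusted p = 0.0116). Its 2 further probe sets gave 0.36 and 0.44.
Ccnd2, the D cyclin of many neural progenitors, read 11.94, 12.10, 12.07 and 12.22 against 11.95, 12.08, 12.20 and 12.12. Its difference was 0.0034 with a 95% interval of -0.18 to 0.18, and its 7 probe sets lay between -0.07 and 0.06.
Ccnd3 read 10.46, 10.49, 10.41 and 10.49 against 10.30, 10.42, 10.63 and 10.44, with a difference of -0.0159 and an interval of -0.18 to 0.15. The sign of Ccnd2 turned with the mean of probe sets, with arrays centred on their medians and in 4 fits without 1 array, and that of Ccnd3 without knockout-labelled replicate 1.

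The genes that take cells into S phase after the D cyclins gave small values. Ccne1 and Ccne2, the E-type cyclins, gave 0.03 and 0.16, and their partner kinase gene Cdk2 gave 0.13. The ranges of Cdk2 did not overlap, with 8.93 to 9.02 in the wildtype and 9.03 to 9.15 in the knockout-labelled arrays, but the gene did not pass (limma, adjusted p = 0.134). E2f1, an activator of replication genes, gave 0.09.

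Of the 4 CDK inhibitor genes 1 rose and 3 did not pass, while 7.84% of all genes rose. The list is too short to compare with that share, since its only call is Cdkn1c. Cdkn1c, an imprinted gene whose protein blocks G1 and S phase kinases and promotes cycle exit in the embryo, read 12.01, 11.92, 11.90 and 11.92 in the wildtype arrays. It read 12.43, 12.45, 12.82 and 12.63 in the knockout-labelled ones. Every knockout-labelled array was higher than the highest wildtype array. The difference was 0.65 (SE 0.09, limma, adjusted p = 0.000860), or 1.56-fold, and it was the largest rise among the members.
Cdkn2c, an inhibitor of Cdk4 and Cdk6, read 8.17, 8.20, 8.17 and 8.40 against 8.52, 8.19, 8.70 and 8.80. Knockout-labelled replicate 2 lay among the wildtype arrays. The difference of 0.32 did not pass (limma, adjusted p = 0.110), and it was 0.44 without that array (adjusted p = 0.00788).
Cdkn1a, the p53-induced inhibitor, read 10.57, 10.59, 10.55 and 10.71 against 10.26, 10.56, 10.49 and 10.32, with a difference of -0.20 (limma, adjusted p = 0.128). Its other probe set gave -0.27 without overlap.
Cdkn1b, an inhibitor of Cdk2 that marks resting cells, read 9.25, 9.03, 9.13 and 9.06 against 9.03, 8.97, 8.85 and 8.80. The groups did not overlap, but only barely, and the difference was -0.21 (limma, adjusted p = 0.0910).

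The arrays are of whole tissue, in which fewer cells of a type and less RNA per cell cannot be told apart. Beside the rise of Cdkn1c stand the stroma and mural cell markers, of which 10 of 10 were higher in the knockout-labelled arrays. Their mean level ran from 10.96 to 11.29 there and from 10.40 to 10.53 in the wildtype arrays. Macrophage markers were higher in 8 of 10, with 9.07 to 9.54 against 8.44 to 8.69. Of 10 endothelium markers 1 was higher and 3 were lower, and of 9 measured erythroid markers 0 were higher and 1 was lower. Over all genes 7.84% were higher and 11.7% lower. The part of these cell types in the rise of Cdkn1c was not tested.

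In G2 and mitosis 1 of 16 measured members passed, and it fell (6.2%, against 11.7% of all genes lower). Cdk1, the kinase that drives entry into mitosis, read 10.20, 10.23, 10.23 and 10.24 in the wildtype arrays and 9.75, 9.66, 9.48 and 9.70 in the knockout-labelled ones. The wildtype arrays were nearly equal, and the highest knockout-labelled array was well under the lowest of them. The log2 difference was -0.58 (SE 0.07, limma, adjusted p = 0.000355), or 1.49-fold lower. This was the only fall among the members that passed, and it held in each of the 8 fits without 1 array, where it ranged from -0.61 to -0.52. A single probe set measures the gene.

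The partners of Cdk1 did not pass. Ccna2, the cyclin of S phase and G2, gave 0.27 (limma, adjusted p = 0.123) and passed with the replicate block (adjusted p = 0.0489). Ccnb2, a mitotic B-type cyclin, gave -0.0037 with a 95% interval of -0.23 to 0.22, and its sign turned with array weights, quantile normalization and in 5 of the fits without 1 array. A fall as large as that of Cdk1 lies outside the intervals of both.

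Of the 13 genes for mitotic kinases, spindle and kinetochore 0 passed limma, and 2 had an unadjusted p under 0.05. The pair was Birc5 and Aurka. Birc5, the survivin subunit of the chromosomal passenger complex, read 8.74, 8.67, 8.66 and 8.85 in the wildtype arrays and 9.27, 8.88, 8.87 and 9.05 in the knockout-labelled ones. The groups came close but did not overlap, and the difference was 0.29 (SE 0.10, adjusted p = 0.0672, and adjusted p = 0.0454 with the replicate block).
Aurka, the kinase of the spindle poles, read 7.90, 7.94, 7.75 and 8.01 against 7.82, 7.63, 7.18 and 7.76. Its difference of -0.31 was the lowest of the 13 and rests much on knockout-labelled replicate 3, the lowest array (limma, adjusted p = 0.150, and -0.17 without it).
Mki67, the Ki-67 antigen of cycling cells, read 10.30, 10.23, 10.11 and 10.22 against 10.75, 10.23, 10.25 and 10.62. Only knockout-labelled replicates 1 and 4 stood above the wildtype range, and the difference was 0.25 (limma, adjusted p = 0.194). Top2a, the topoisomerase that untangles chromosomes, read 9.94, 9.88, 9.67 and 9.79 against 10.12, 9.86, 9.78 and 10.21, with a difference of 0.17.

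The other mitotic members had differences between -0.06 and 0.20. The kinase genes Plk1 and Aurkb gave 0.18 and 0.11, and the spindle motor and assembly genes Kif11 and Tpx2 gave 0.20 and 0.10. For the spindle checkpoint, Bub1 gave 0.16 and Bub1b gave -0.06, which became 0.04 with the mean of probe sets, while its target Cdc20 gave 0.03. Cenpa, the centromeric histone, and Cenpe, the kinetochore motor, gave 0.15 each. Without Cdk1, the 15 other G2 and mitosis members had a median of 0.15. Across all members, 36 had several probe sets, and 36 of the 45 further probe sets above the median level had the sign of the brightest.

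**Figure D3:**
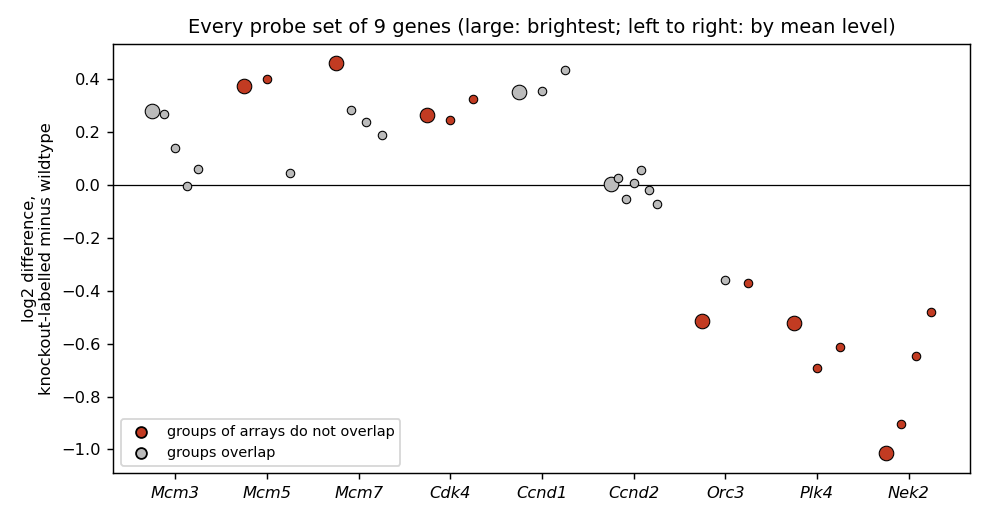
Log2 difference (knockout-labelled minus wildtype) of every probe set of 9 genes, 6 members and 3 further cell cycle genes, with the brightest drawn large. All probe sets of Cdk4 and Ccnd1 lie above 0 and all of Orc3, Plk4 and Nek2 below it, while those of Ccnd2 lie near 0 and those of Mcm7 spread from 0.19 to 0.46.

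Beyond the members, 148 further cell cycle genes were listed and 143 measured. Of these 9 rose, 8 fell and 126 did not pass, a share of 11.9% against 19.6% of all genes, with a median of 0.08. Higher calls made up 6.29% of them, against 7.84% of all genes. With the replicate block 18 rose (12.6%, against 8.36% of all genes) and 9 fell (6.29%, against 11.7%). The number that rose changed with single arrays, from 1 without knockout-labelled replicate 4 (5.56% of all genes in that fit) to 20 without knockout-labelled replicate 2 (14%, against 10.1% of all genes). It was 2 on leaving out knockout-labelled replicate 1 or wildtype replicate 3, and 4 and 5 on leaving out wildtype replicates 2 and 4, with 4.97% to 5.79% of all genes higher in these 4 fits, while 7 to 9 fell in every fit without 1 array. Quantile normalization gave 18 risers and 8 that fell, with 9.62% and 12.3% of all genes.

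Among 58 further genes of G2 and mitosis 4 fell and 1 rose. That is 6.9% lower and 1.7% higher, against 11.7% and 7.84% of all genes. Nek2, a kinase that splits the centrosomes, read 8.92, 8.92, 8.96 and 8.86 in the wildtype arrays and 7.97, 7.95, 7.69 and 8.0 in the knockout-labelled ones. The groups lay far apart, and the difference was -1.02 (SE 0.08, limma, adjusted p = 3.22e-05). All 4 of its probe sets separated the groups, with differences from -1.02 to -0.48.
Plk4, the master kinase of centriole duplication, read 10.16, 10.14, 10.25 and 10.40 against 9.75, 9.75, 9.49 and 9.87. Its difference was -0.52 (limma, adjusted p = 0.00366), and its further probe sets gave -0.69 and -0.61. Pttg1, the securin that guards sister chromatid cohesion, gave -0.33, with -0.45 and 0.09 from its other probe sets, and the condensin gene Ncaph -0.32. Espl1, the separase that securin inhibits, rose by 0.34, a call lost in 5 of the 8 fits without 1 array and when arrays were centred on their medians (adjusted p up to 0.107).

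Of 40 further genes that control G1, S phase entry and cycle exit 5 rose and 3 fell. These shares were 12.5% and 7.5%, against 7.84% and 11.7% of all genes. E2f7, a repressor of E2F target genes, read 9.64, 9.73, 9.81 and 9.73 in the wildtype arrays and 8.70, 8.77, 8.41 and 8.73 in the knockout-labelled ones. Its difference was -1.08 (SE 0.09, limma, adjusted p = 4.13e-05), or 2.11-fold lower, from its only probe set. Ccng1, a target of p53, gave -0.34. Atr, a kinase of the replication checkpoint, gave -0.28, but 0.06 with the mean of probe sets, as its dimmer probe sets gave 0.34 and 0.12, and it did not pass when knockout-labelled replicate 1 or wildtype replicate 2 or 4 was left out.
Gadd45a, a stress-induced growth arrest gene, rose by 0.61 (limma, adjusted p = 0.00113), from 6.60 to 6.91 in the wildtype to 7.15 to 7.43 in the knockout-labelled arrays. Myc, a driver of growth, rose by 0.44, E2f3, an E2F activator, by 0.38 and Atm, the kinase of the double-strand break response, by 0.37. Btg2, an antiproliferative gene named after its value was seen, rose by 0.36. Myc did not pass in 6 of the 8 fits that leave an array out, nor with the replicate block (limma, adjusted p = 0.0636). E2f3 lost it in 4 of those fits and Atm in 3.

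Of 45 further replication genes 3 rose and 1 fell (6.7% and 2.2%, against 7.84% and 11.7% of all genes). Orc3, a subunit of the origin recognition complex, read 8.95, 8.97, 8.91 and 9.09 against 8.46, 8.28, 8.56 and 8.56. The groups were apart, with a difference of -0.52 (limma, adjusted p = 0.00156) and -0.36 and -0.37 from its other probe sets. The risers, Timeless (0.31), Rnaseh2a (0.32) and Gins3 (0.22), act at the fork, and each lost its call in 4 to 6 of the 8 fits without 1 array. The calls of Nek2, E2f7, Plk4, Orc3, Pttg1, Ncaph and Ccng1 held in all 8 and under the 8 other settings apart from the threshold, as did those of the members Cdk1, Cdk4 and Cdkn1c. Gadd45a, a riser, held in all 8 and in the 7 other settings that tested it.

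**Figure D4:**
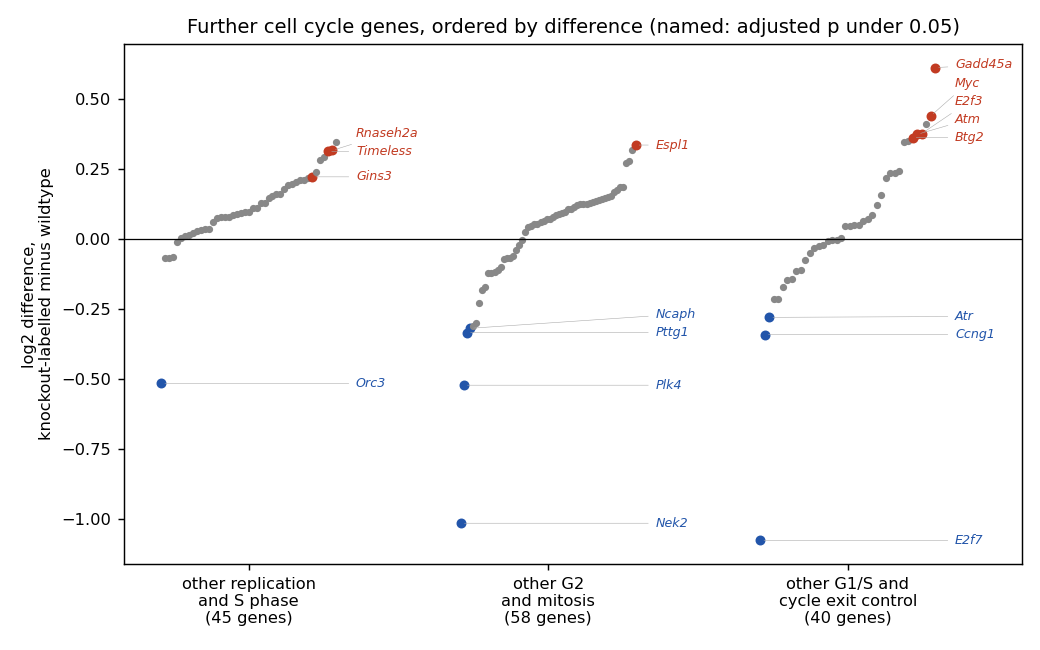
Log2 difference (knockout-labelled minus wildtype) of 143 further cell cycle genes in 3 lists, ordered within each list, with the genes past an adjusted p under 0.05 named. Nek2 lies at -1.02, E2f7 at -1.08 and Plk4 and Orc3 at -0.52, and Gadd45a lies highest at 0.61.

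Multiciliated cell markers were lower in the same arrays. Of 10 measured 9 fell (90.0%, against 11.7% of all genes) and 0 rose. The mean level of the 10 ran from 7.30 to 7.49 in the knockout-labelled and from 8.20 to 8.28 in the wildtype arrays. Ccno, a cyclin-like regulator of centriole amplification, changed by -1.95 and Foxj1, which directs the building of motile cilia, by -0.99. Of these markers Spag6 was low in both groups, at 2.43 against 2.46, where a level cannot be separated from background. Choroid epithelium markers, with Otx2 itself among them, averaged 11.51 to 11.71 against 12.05 to 12.15. The part of these cells in the falls of Cdk1, Nek2, Plk4 and E2f7 was not tested.

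Within a group the members shared a pattern over arrays. In 36 of 47 members (76.6%) knockout-labelled replicates 1 and 4 both lay above replicates 2 and 3, against 14.2% of all genes. This split of the arrays was read from the same values, so the excess describes them and tests nothing. For the 13 mitotic genes replicates 1 and 4 were above the group mean in all 13, replicate 1 being highest in 11 and replicate 3 lowest in 10. In the wildtype group replicate 3 was the lowest array in 33 of 47 members (70.2%), against 30.5% of all genes, and it too was picked from these values.
The mean level of the mitotic genes was 9.08, 8.72, 8.63 and 9.0 in knockout-labelled replicates 1 to 4 and 8.83, 8.73, 8.63 and 8.80 in the wildtype ones. Replicates 2 and 3 of both groups were thus about equal, while replicates 1 and 4 were higher in the knockout-labelled group. The SD of a member had a median of 0.19 in the knockout-labelled and 0.10 in the wildtype group, and it was larger in the former for 42 of 47 members (89.4%), against 63.5% of all genes. Over the members the deviations of same-numbered arrays correlated at 0.519, 0.387, 0.332 and 0.187, and those of differently numbered pairs at -0.396 to 0.126. These correlations run across genes, which are not independent replicates.

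Markers of other cells varied between arrays too. The mean of 10 neuron markers was 8.18, 9.11, 7.59 and 8.13 in the knockout-labelled and 8.88, 8.37, 7.46 and 7.25 in the wildtype arrays. Of these markers 0 of 10 passed limma, and 1, Gap43, had an unadjusted p under 0.05. Neural progenitor markers averaged 10.12, 10.02, 9.82 and 10.07 against 9.98, 9.79, 9.66 and 9.62, and 3 of 10 rose and 1 fell. In the knockout-labelled arrays the progenitor means ran in the same order as those of the mitotic genes, while the neuron means were highest in replicate 2. Single progenitor markers did not share that order. Sox2, Nes, Fabp7, Hes5 and Msi1 were highest in replicate 2, Slc1a3, Vim and Prom1 in replicate 1, and Pax6 and Sox9 in replicate 4. Pax6, at 9.44, 8.12, 8.76 and 9.45, had the widest range. In the wildtype arrays the progenitor mean was lowest in replicate 4 and the mitotic mean in replicate 3. The part of these cell types in the spread of the cell cycle members was not tested.

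**Figure D5:**
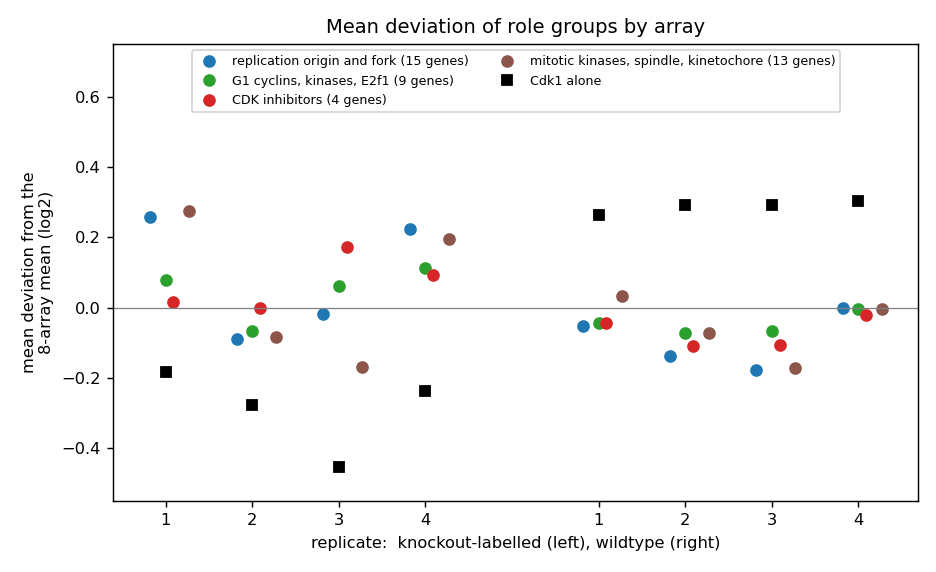
Mean deviation of 4 role groups, and of Cdk1 alone, from their means over 8 arrays (vertical axis, log2 units) in each array, with knockout-labelled replicates on the left and wildtype ones on the right, and without the small groups of nucleotide synthesis and of S and M cyclins. The replication and mitotic groups are higher in knockout-labelled replicates 1 and 4 than in 2 and 3, and Cdk1 is below 0 in all 4 knockout-labelled arrays and above 0 in all 4 wildtype ones.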

How the data were processed

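RNA of fourth-ventricle choroid plexus was hybridised to 8 Affymetrix arrays, 4 per group. The deposited values are log2 expression levels of 45101 probe sets, which the authors computed by RMA according to the notes on processing, a method that corrects background, equalises arrays and summarises probes, with its version not given in the sources used here. RMA compresses differences, and dim probe sets may read mostly background, with no detection calls analysed here.

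Each gene was represented by its probe set of highest mean over the 8 arrays, among those with 1 symbol. Groups were compared with limma 3.58.1 in R 4.3.3 over all 18193 genes, with Benjamini-Hochberg adjustment, and the script was checked on simulated data. P-values set the group difference against the spread between samples within a group, and the number of samples limits the precision. The members and gene lists were chosen with earlier results of these data known. Values per array were given for called members of each role, for the 2 smallest p-values where a role had none, for the D-type cyclins, the CDK inhibitors, Mki67, Top2a and Pcna, and for called further genes the main values. Deviations of same-numbered arrays correlated over all genes at 0.131, 0.232, 0.160 and 0.223, each over 0.1, while other pairs ranged from -0.296 to 0.294. This pairing comes from the values, and the labels name no litter per number. Alternatives were a replicate block, array weights, another prior, other probe set and level filters, centring, quantile normalization, other thresholds and leaving out each array.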

Additional observations from a re-analysis of the deposited data

Results flagged for a closer look

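In 4 of 128 groups of 4 arrays, 1 array stood apart from the other 3 by Dixon's test, and chance flags about 1 in 20 groups. Mcm4 was lowest in wildtype replicate 3, at 9.72 against 9.86 to 9.88 in the other wildtype arrays. Cdkn2c was highest in wildtype replicate 4, at 8.40 against 8.17 to 8.20. Nek2 was lowest in knockout-labelled replicate 3, at 7.69 against 7.95 to 8.0. Atr was lowest in wildtype replicate 3, at 8.50 against 8.67 to 8.70.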

How the results depend on the processing

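Members that rose numbered 11 with the replicate block, 12 with array weights, 8 with a trended robust prior, 3 with the mean of probe sets, 3 without shared probe sets, 10 among genes above the median level, 8 with quantile normalization, 1 at an adjusted p under 0.01 and 10 under 0.1, against 5. Leaving out 1 array gave 3 to 12. Members that fell numbered 3 above the median level and 3 at 0.1, and 1 to 2 without 1 array. Further cell cycle genes that rose numbered 18 with the block, 19 with weights, 14 with the trended prior, 14 above the median level, 18 with quantile normalization, 1 at 0.01 and 18 at 0.1, and 1 to 20 without 1 array. Those that fell numbered 4 at 0.01. Over all genes 601 rose and 1349 fell at 0.01, and 905 to 1845 rose without 1 array. The all-gene share of risers was 7.84% in the main fit, 8.36% with the block and 9.62% with quantile normalization. The members' shares there were 10.6%, 23.4% and 17.0%. More of all genes also rose with weights, with the trended prior and at 0.1. Fewer rose with the mean of probe sets and without shared probe sets. Fewer genes were tested above the median level. The counts alone thus do not compare the members with all genes. The median of the members stayed between 0.08 and 0.21.

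Ccnd1 passed with the replicate block (0.35) and with weights (0.47), and ranged from 0.24 to 0.52 without 1 array. Cdkn1a ranged from -0.25 to -0.15 and Cdkn2c from 0.24 to 0.44 without 1 array, and Cdkn2c passed with weights (0.40). Cdkn1b passed at -0.21 above the median level and at 0.1. Signs turned as follows, and the cause was not tested. With the mean of probe sets Mcm10 was -0.0577, Rrm1 -0.00443, Ccnd2 -0.0058, Bub1b 0.0447 and Atr 0.0603. Gins2 was -0.0211 without shared probe sets, and Ccnd2 -0.0244 with centring. With weights and quantile normalization Cdt1 was 0.0274 and 0.0112, and Ccnb2 0.00633 and 0.00681. Without 1 array Ccnd2 ranged from -0.0426 to 0.0503, Ccnd3 from -0.0758 to 0.033, Cdt1 from -0.0456 to 0.0469, Tyms from -0.00438 to 0.18, Ccne1 from -0.0198 to 0.0599, Ccnb2 from -0.0737 to 0.0743, Cdc20 from -0.0432 to 0.0933 and Tpx2 from -8.2e-05 to 0.19. The arrays' number and low signals such as Tyms limit precision.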
